A study of Mus musculus with 50 samples.

Results

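Non-regenerative mouse digits were compared 24 hours and 0 hours after amputation across every gene counted. The comparison takes the 3 digits labelled non-regenerative at 24 hours and the 3 labelled non-regenerative at 0 hours, 6 samples of the 50 in the series, and no measured value was used to choose them. In the study, the distal phalanx of hindlimb digit 3 was cut on both feet of male C57Bl/6 mice of 9 to 10 weeks, the wounds were not sutured, and tissue around the wound bed was taken for poly-A RNA sequencing. The labels name no transgene and no agent for either group. The labels put the amputation level of the 0-hour digits a, b and c at 62, 62 and 75% of the phalanx and that of the 24-hour digits a, b and c at 63, 68 and 73%. The other digits sampled at both times, called intermediate, were cut at 41 to 55%. Letters follow accession order and pair no digits. The study's methods give a separate mouse for each replicate of a time point, and the titles of the 6 digits differ in date or in a mark before it, although no source used here ties each digit to a mouse.

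Of the 6 digits, those at 62, 62 and 63% lie below the level above which a cut counts as non-regenerative in the study's methods, within the range given there for intermediate digits. The group names of the labels are used here. In general, a digit tip cut far proximally closes by scarring, whereas a distal cut can regrow bone and nail. In the first day of a skin wound, platelets and injured cells release signals, neutrophils enter in large numbers, and keratinocytes at the edge switch on stress keratins, loosen from the basement membrane and crawl over the provisional matrix with the help of secreted proteases. The wound bed here is a mixture of epidermis, nail, dermis, bone, vessels, nerve and blood, so a lower level can mean fewer cells of a type or less RNA in each cell, and these cannot be told apart.

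The 0-hour libraries held 4747702, 10608244 and 9398455 expected counts and the 24-hour libraries 8717032, 9544435 and 5581361. Spearman correlations across genes were 0.935 to 0.985 within the 0-hour digits, 0.950 to 0.975 within the 24-hour digits and 0.880 to 0.928 between the times. The first principal component held 54.6% of the variance and separated the times. The second held 21.3% and set 0-hour digit a, the shallowest library, apart from the others, at 67.6. The 24-hour digits c and a lay at 22.6 and -4.50. The 0-hour digits b and c and 24-hour digit b lay at -29.6, -28.1 and -28.1. The labels date these digits to a later period and the others to an earlier one. So 0-hour digit a is the only earlier digit at 0 hours, and 24-hour digit b the only later digit at 24 hours. The part of date in this component was not tested. The labels call the tissue the terminal phalanx around the wound bed, and the epidermal keratins Krt5 and Krt14 and the bone collagen Col1a1 were present in every digit. Values below are normalized counts (counts scaled to a common library size) for digits a, b and c in that order, unless another scale is named.

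Of 13420 genes tested, 747 were called higher at 24 hours and 690 were called lower. A call needed an adjusted p below 0.05 in edgeR's quasi-likelihood test and a change of more than 2-fold in the mean. These calls are 5.57% and 5.14% of the genes tested, and each count of list members called below is to be read beside these shares. With upper quartile scaling, which shifted the median gene by -0.11 on the log2 scale, 619 were higher and 889 lower, so that the share of calls that were higher went from 52.0% to 41.0%. The rises reached further than the falls. More than 4-fold changes were seen in 273 genes that rose and 204 that fell, and more than 16-fold changes in 88 and 41. In 14 of the genes called higher every 0-hour library was at 0, and in 8 of those called lower every 24-hour library was at 0. The plot of all tested genes shows the same asymmetry.

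**Figure D1:**
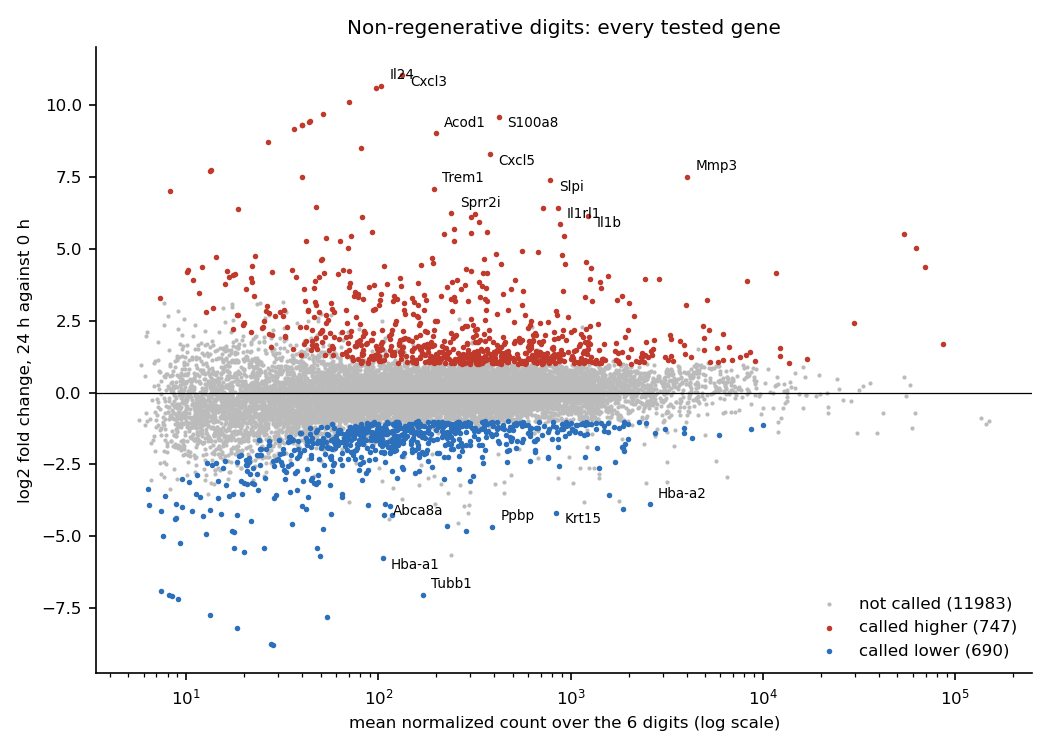
Each point is 1 of 13420 tested genes, with its mean normalized count over the 6 digits on a log axis and its log2 fold change at 24 hours against 0 hours on the other axis. The 747 genes called higher are red and the 690 called lower are blue, and several of the strongest changes are named.

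Among genes with a mean of at least 100 normalized counts whose groups did not overlap, the 12 largest rises included neutrophil attractants, alarm cytokines, myeloid genes, a matrix protease and cornified envelope proteins. Mmp3, a secreted metalloproteinase that cuts matrix proteins and activates other proteases, was among the most abundant of these. It stood at 46.2, 20.8 and 64.2 at 0 hours and at 5792, 8786 and 9506 at 24 hours. Its log2 fold change was 7.52 ± 0.48 (SE) in edgeR's quasi-likelihood test, with an adjusted p of 0.000109. Slpi, an inhibitor of neutrophil elastase, went from 7.22, 6.93 and 12.8 to 2049, 1229 and 1393. Il1rl1, the receptor for IL-33, went from 33.2, 10.8 and 17.97 to 1377, 1351 and 2373. Their log2 fold changes were 7.39 ± 0.34 and 6.44 ± 0.44. Groups without overlap were a condition of this choice, and 5234 of the 13420 tested genes met it.

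Several of the largest rises began from nothing or nearly nothing. Cxcl3, a chemokine that attracts neutrophils, had 0 counts in all 3 digits at 0 hours and 239, 48.1 and 510 at 24 hours, at least 61.3-fold higher when set against 3 counts in the smallest 0-hour library. Il24, a cytokine of the IL-10 family that acts on epithelium, was likewise at 0 in every 0-hour digit and at 151, 167 and 303 later, at least 47.8-fold higher. S100a8, a subunit of the neutrophil protein calprotectin, had 3 counts in all at 0 hours and then 848, 859 and 830, a ratio of 893 with a counting interval of 305 to 4334. Acod1, which makes itaconate in activated myeloid cells, had 2 counts in all at 0 hours and then 463, 85.1 and 643, a ratio of 574 (158 to 4745). Intervals and floors cover counting error only. Digit b was the lowest of the 24-hour digits for Cxcl3 and Acod1 but not for S100a8 or Il24.

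Under the same limits, the 12 largest falls included red cell, platelet and hair follicle genes. Tubb1, the platelet tubulin, stood at 777, 141 and 94.97 at 0 hours and at 3.77, 2.77 and 0 at 24 hours, with a log2 fold change of -7.04 ± 1.10 (edgeR, adjusted p = 0.00506). Krt15, a keratin of resting basal cells and of the hair follicle bulge, fell from 1029, 1336 and 2419 to 89.6, 91.6 and 80.2, with a log2 fold change of -4.19 ± 0.34 (edgeR, adjusted p = 0.00031). Its 24-hour digits were nearly equal, although the 0-hour digits spread widely. Abca8a, a lipid transporter, went from 234, 179 and 195 to 21.7, 12.9 and 4.29. Serpina3b, a serine protease inhibitor, went from 34.7, 145 and 433 to 16.03, 13.9 and 0, but this call was lost when 0-hour digit c or any 24-hour digit was left out (adjusted p 0.0626 to 0.0987 in edgeR). All called genes named in what follows kept their call when each digit was left out in turn, except where a loss is given. The strand used in counting is not given in the sources used here, so values are uncertain for genes whose exons overlap a gene on the other strand. Among called genes named here these are Il1b, Il1a, Bcl3, Krt6a, Krt6b, Itgb4, Mmp1b, Ereg, Tgfa, Col5a1, Tnc, Has2, Tgfb2, Tgfb3, Fst, Hhip, Jun, Fosl1, Slc2a1, Pfkm, Elovl3, Plk1, Atp12a and Skint6, and among others Csf1r, Pdgfra, Acp5, Krt5, Krt10, Fn1 and Wnt5a. Slpi, Pdgfra, Col3a1 and Pfkm share exons with a gene on their own strand.

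**Figure D2:**
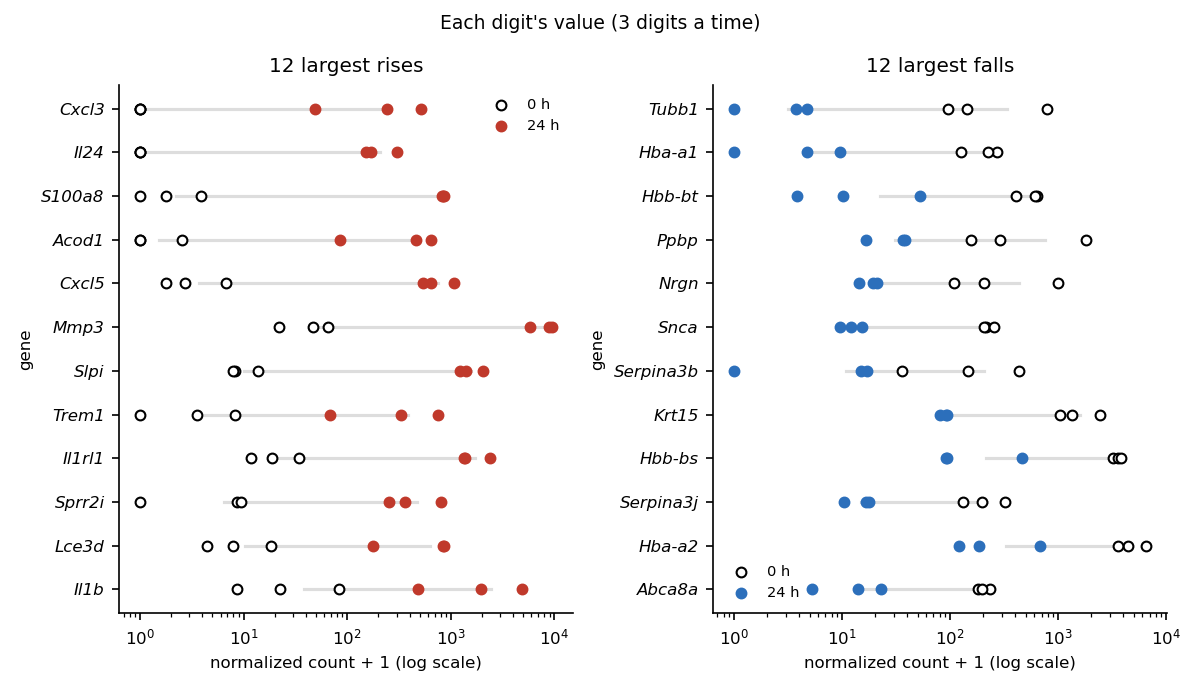
Normalized counts plus 1 on a log axis for the 12 strongest rises and the 12 strongest falls, with open circles for the 3 digits at 0 hours and filled circles for the 3 at 24 hours. The grey bar joins the group means, and genes were shown only if their groups did not overlap.

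Promoters of some chemokines and proteases that rose are shown here because some members of each family carry the same short motif close to the start. They were chosen after the motif search. The sequences are the RefSeq windows on GRCm38.p6, written 5′ to 3′ on the gene's strand and ending at the base before the start. In the neutrophil chemokine genes Cxcl1, Cxcl2 and Cxcl3 on chromosome 5 the capitals mark matches to the NF-kB motif, GGGANTTTCC. All 3 hold the identical 10 letters, which begin 71 bases before the start in Cxcl1, 97 in Cxcl2 and 73 in Cxcl3. The promoter of Cxcl5, in the same stretch of chromosome 5, was not analysed here.
Cxcl1, chr5:90891125-90891244, plus strand: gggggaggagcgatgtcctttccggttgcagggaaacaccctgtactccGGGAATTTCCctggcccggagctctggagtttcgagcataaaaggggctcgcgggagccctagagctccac
Cxcl2, chr5:90903779-90903898, plus strand: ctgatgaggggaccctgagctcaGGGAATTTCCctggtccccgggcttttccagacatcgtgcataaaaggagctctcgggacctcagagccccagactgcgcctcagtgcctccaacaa
Cxcl3, chr5:90785981-90786100, plus strand: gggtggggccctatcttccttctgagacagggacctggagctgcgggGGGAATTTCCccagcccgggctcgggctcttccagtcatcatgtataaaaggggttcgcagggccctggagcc

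In 4 metalloproteinase genes on chromosome 9 and in Sprr1a, a cornified envelope gene on chromosome 3, the capitals mark matches to the AP-1 motif, TGANTCA. In the same search, no AP-1 match upstream of the start was listed for Mmp2, Mmp8, Mmp9 or Timp1. A gene without a window would also go unlisted. Matches were found in genes called lower too, among them Col6a1 and Ppbp. The match begins 46 bases before the start in Mmp3, 63 in Mmp10, 35 in Mmp13 and 93 in Mmp1b, and Sprr1a holds 2 matches, at 146 and 116 bases. The bases just after the RefSeq start of Mmp10 were not found in another annotation's transcripts, so its distance is uncertain.
Mmp3, chr9:7445702-7445821, plus strand: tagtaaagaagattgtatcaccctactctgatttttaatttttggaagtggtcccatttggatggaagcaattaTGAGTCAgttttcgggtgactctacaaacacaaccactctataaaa
Mmp10, chr9:7502222-7502341, plus strand: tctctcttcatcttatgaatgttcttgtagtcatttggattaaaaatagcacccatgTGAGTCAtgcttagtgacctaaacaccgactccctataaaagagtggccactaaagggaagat
Mmp13, chr9:7272394-7272513, plus strand: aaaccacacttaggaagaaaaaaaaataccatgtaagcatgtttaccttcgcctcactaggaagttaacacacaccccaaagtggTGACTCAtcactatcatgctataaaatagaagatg
Mmp1b, chr9:7388027-7388146, minus strand: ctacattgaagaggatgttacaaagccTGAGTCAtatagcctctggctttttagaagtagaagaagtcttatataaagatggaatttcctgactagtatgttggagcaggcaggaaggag
Sprr1a, chr3:92485882-92486031, minus strand: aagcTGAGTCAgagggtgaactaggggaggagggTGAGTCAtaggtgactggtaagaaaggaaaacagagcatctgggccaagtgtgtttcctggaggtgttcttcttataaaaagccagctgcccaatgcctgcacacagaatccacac

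Over windows from 250 bases before to 50 after the start, searched on both strands, the NF-kB motif was present in 1.83% of the 546 genes called higher that had a window, in 1.36% of the 514 called lower and in 0.564% of the 10285 tested genes with a window. The AP-1 motif was present in 13.2%, 8.17% and 6.92%. For a STAT motif, TTCCNGGAA, the shares were 1.83%, 0.584% and 1.4%. In all 27025 promoters of the table the shares were 0.466%, 8.97% and 1.35%. A match to a motif was counted whether or not it overlapped a match to another, the shares were not tested, and a match is a description of the sequence, not evidence that a factor was bound.

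Chemokines were the first group of the inflammatory response. Of 9 CXC chemokines tested, 5 were called higher and 2 lower, with a median log2 fold change of 1.29 against -0.04 for all tested genes. Cxcl1, Cxcl2, Cxcl3 and Cxcl5, which signal through CXCR2 on neutrophils, rose together. Cxcl1 went from 397, 102 and 62.5 to 1912, 3005 and 3048, and Cxcl2 from 114, 10.01 and 10.3 to 2022, 617 and 2780. Cxcl5 went from 5.78, 0.770 and 1.71 to 534, 646 and 1082, a log2 fold change of 8.29 ± 0.53 (edgeR, adjusted p = 0.000109). The 0-hour digit a held the most Cxcl1 and Cxcl2 of the 0-hour digits, yet still lay below every 24-hour digit. The 2 CXC genes that were lower were the platelet chemokines Pf4 and Ppbp, which are stored in platelets, and both calls were lost without 24-hour digit a (adjusted p 0.0526 to 0.141 for Pf4 and 0.0518 to 0.0612 for Ppbp over all such losses in edgeR, which also came without digits b or c at 24 hours or a at 0 hours for Pf4 and without 24-hour digit c for Ppbp).

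Among 11 CC chemokines, which attract monocytes, lymphocytes and dendritic cells, 6 were higher and 1 was lower. Ccl2, the main monocyte attractant, went from 2.89, 3.08 and 0.856 to 142, 117 and 228, a log2 fold change of 6.11 ± 0.51 (edgeR, adjusted p = 0.000383). Ccl4 was at 0 in every 0-hour digit and at 86.7, 27.7 and 126 later, at least 18.5-fold higher. Ccl20, which recruits CCR6-bearing cells to epithelium, went from 0, 3.08 and 0.856 to 23.6, 18.5 and 51.5 and lost its call without 0-hour digit c or 24-hour digit a (adjusted p 0.0529 and 0.0758 in edgeR). Without 0-hour digit c, 3 of the 11 were called higher.

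Cytokines of the IL-1, IL-6 and TNF families and their receptors formed the group with the most rises of this kind, with 14 of 23 higher, none lower and a median log2 fold change of 2.54. The count ran from 11 to 18 when 1 digit was left out. Il1b, the main secreted IL-1 of myeloid cells, went from 82.4, 7.70 and 21.4 to 1943, 483 and 4861, with a wide spread among the 24-hour digits and a log2 fold change of 6.14 ± 1.06 (edgeR, adjusted p = 0.00755). Il1a, the IL-1 held in keratinocytes, changed less, from 54.9, 43.1 and 87.3 to 205, 132 and 336.4, and lost its call without 0-hour digit b or 24-hour digit a or c (adjusted p 0.0523 to 0.0612 in edgeR). Il1rn, the natural IL-1 receptor blocker, had 175, 397 and 336.2 and then 637, 412 and 819, a log2 fold change of 1.03 ± 0.34 that missed the threshold (edgeR, adjusted p = 0.0692).

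Il19, which shares a receptor with Il24, was at 0 in every 0-hour digit and at 91.4, 42.5 and 106 at 24 hours, at least 18.4-fold higher. Csf3, the growth factor that mobilizes neutrophils from marrow, was also at 0 at first and then at 14.1, 24.97 and 41.5, at least 6.20-fold higher. Tnf, Il10, Il17a and Il23a were too low at both times to be tested. The list of interferon targets gave no call in either direction among 18 tested, but it does not hold every interferon-inducible gene. Of 14 tested genes with an Ifi symbol, looked at after the values were seen, 3 were called higher and 0 lower. Those 3 are not on the list. The interferon target list had a median log2 fold change of -0.16. Ifit3, for example, had 34.7, 29.3 and 43.6 at 0 hours and 81.1, 13.9 and 27.2 at 24 hours.

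Genes of NF-kB and JAK-STAT feedback rose in part, with 7 of 17 higher and none lower. Bcl3, a nuclear co-factor of NF-kB, had the largest change, from 34.7, 23.9 and 32.5 to 260, 342 and 344, a log2 fold change of 3.38 ± 0.25 (edgeR, adjusted p = 0.000215). Nfkbia, the inhibitor that NF-kB itself induces, had 688, 689 and 642 and then 1024, 1282 and 978, a log2 fold change of 0.70 ± 0.16 with an adjusted p of 0.0225 in edgeR, which is below the 2-fold limit. Socs3, which damps IL-6 signalling, went from 432, 146 and 83.0 to 1137, 1054 and 1284 and lost its call without 0-hour digit b or 24-hour digit a or c (adjusted p 0.0519 to 0.0585 in edgeR). The count of 7 was 3 without 0-hour digit c, 4 without 24-hour digit a or c, and 11 without 0-hour digit a.

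Neutrophil genes were higher as a group. Of 10 neutrophil markers tested, 8 were higher and 2 were not called, and the summed level of the list was 275 to 496 at 0 hours and 4683 to 9634 at 24 hours. S100a9, the partner of S100a8, went from 23.1, 30.8 and 33.4 to 1743, 1630 and 1845, with tight groups and a log2 fold change of 5.88 ± 0.21 (edgeR, adjusted p = 1.3e-05). Trem1, a receptor that amplifies inflammation on neutrophils and monocytes, went from 7.22, 0 and 2.57 to 326, 66.6 and 759. Lcn2, which withholds bacterial iron, went from 24.6, 0.770 and 5.13 to 763, 500 and 530. Cxcr2, the receptor for the chemokines above, had 43.3, 79.3 and 52.2 and then 127, 74.9 and 271 and was not called (edgeR, adjusted p = 0.0754). The surface marker gene Ly6g and the granule genes Ltf, Ngp, Camp, Mpo and Elane were too low to be tested. Of the 18 markers listed, 10 were tested. S100a8, S100a9, Lcn2 and Mmp9 are also made by wounded epithelium or other myeloid cells, and the part of each source was not tested.

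Markers of resident macrophages did not follow. Of 15 monocyte and macrophage markers, 2 were higher, none was lower, and the median log2 fold change was -0.07. Adgre1, which encodes F4/80, had 30.3, 30.04 and 40.2 and then 15.1, 16.6 and 64.4, and Csf1r had 191, 190 and 157 and then 92.4, 58.3 and 368. In both genes digit c was high and the other two 24-hour digits were low, so the groups overlapped. The 2 that rose were Cd14, from 91.0, 23.9 and 7.70 to 645, 209 and 1218, and Chil3, from 15.9, 3.08 and 1.71 to 64.1, 25.9 and 136, and both calls were lost without 0-hour digit b, without 24-hour digit a and without 24-hour digit c, and that of Chil3 also without 0-hour digit c (adjusted p 0.0504 to 0.0572 and 0.0781 to 0.0935 in edgeR). Markers of T and NK cells gave no call among 3 tested, and 9 more were too low to test.

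Sensors of damage and microbes gave 3 calls among 13, all higher, with a median log2 fold change of 1.67. The fitted value rose in 9 of the 13. Clec4e, a C-type lectin that senses dead cells and fungi, had 1 count in all at 0 hours and then 177, 32.4 and 278, a ratio of 464 with a counting interval of 82.8 to 18361. Nlrp3, the inflammasome sensor that leads to release of IL-1β, went from 18.8, 0.770 and 11.1 to 441, 88.8 and 919, a log2 fold change of 5.69 ± 1.02 (edgeR, adjusted p = 0.00861). In both, 24-hour digit b was the lowest, as it was for Il1b, Trem1 and Acod1. That digit is the only 24-hour digit of the later date period, and the part of date was not tested. Toll-like receptors were not called: Tlr2 had 43.3, 18.5 and 18.8 and then 85.8, 35.1 and 132, and Tlr4 had 113, 40.8 and 41.1 and then 61.3, 49.9 and 80.2. Without 24-hour digit b, 7 of the 13 were higher, and without 0-hour digit a 5 were.

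Enzymes of prostaglandin synthesis rose at 2 steps. Ptgs2, the inducible cyclooxygenase, went from 230, 49.3 and 23.96 to 1988, 1442 and 3448, a log2 fold change of 4.55 ± 0.79 (edgeR, adjusted p = 0.00764), and Ptges, which makes prostaglandin E2, from 250, 139 and 182 to 934, 959 and 1278. The other 9 tested genes of the prostaglandin and leukotriene list were not called. Hdc, which makes histamine, went from 44.8, 15.4 and 26.5 to 865, 138 and 1354. The mast cell markers Cpa3 and Tpsb2 were not higher, at 23.1, 19.3 and 17.97 and then 1.89, 2.77 and 18.6 for Cpa3, and at 8.67, 10.8 and 11.1 and then 5.66, 3.70 and 5.73 for Tpsb2.

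Epidermal genes made up another large group of rises. At 24 hours the most abundant genes called higher, on the normalized TPM scale that allows levels of different genes to be compared, were Krt14 at 16594 ± 1805 (SD, n = 3), Krt16 at 16460 ± 3625, Krt6a at 12456 ± 810.0, Anxa1 at 10416 ± 2150 and Krt6b at 10102 ± 1184. At 0 hours the same genes were at 5338 ± 341, 520 ± 110, 631 ± 78.6, 2167 ± 377 and 224 ± 97.4. Krt6a, Krt6b and Krt16 are the stress keratins that keratinocytes make at a wound edge, and Anxa1 is a calcium-dependent membrane protein with anti-inflammatory peptides.

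Krt6b went from 1208, 3273 and 2385 normalized counts to 109705, 115138 and 93264, a log2 fold change of 5.53 ± 0.43 (edgeR, adjusted p = 0.00028). Krt16 went from 2778, 4496 and 3780 to 126040, 142753 and 92944. Krt5, the basal partner of Krt14, did not share the change, at 21395, 26170 and 23739 and then 23460, 29163 and 24305, a log2 fold change of 0.11 ± 0.21. Krt14 itself went from 37064, 44100 and 41982 to 142620, 137186 and 116941. Of 12 basal and wound keratins, 5 were higher and 1, Krt15, was lower. Krt6a and Krt6b are near-identical copies whose reads the counting may split between them, so their separate values are uncertain.

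Late differentiation keratins pointed the other way without reaching a call. Krt1 had 86652, 276830 and 237990 and then 66566, 194651 and 40057, Krt10 had 105709, 220283 and 201529 and then 96672, 116674 and 70895, and Krt2 had 118676, 249573 and 224593 and then 113711, 85532 and 76654. Their log2 fold changes were -0.997 ± 0.631, -0.89 ± 0.36 and -1.10 ± 0.36. The 0-hour digit a was lower than the other 0-hour digits in all 3. Without that digit, 5 of 27 cornification genes were called lower, and with it none was.

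A separate set of envelope genes rose steeply. Of the 27 tested genes of epidermal differentiation and cornification, 7 were higher, among them small proline-rich and late cornified envelope genes of the LCE3 type, which are known from injured and psoriatic skin. Sprr1a went from 237, 441 and 363 to 5437, 7008 and 3692, a log2 fold change of 3.95 ± 0.33 (edgeR, adjusted p = 0.000395). Sprr2d went from 18.8, 5.39 and 5.99 to 358, 605 and 316, and Sprr2i from 0, 7.70 and 8.56 to 360, 810 and 252. Lce3b was at 0 in all 0-hour digits and at 294, 230 and 57.3 later, at least 44.7-fold higher. Lce3d went from 17.3, 6.93 and 3.42 to 847, 867 and 175. Digit c was the lowest 24-hour digit in each of these 5 genes. Sprr2 and Lce3 genes lie in clusters of similar copies, so single members are uncertain. Without 0-hour digit c or 24-hour digit a, 4 of the 27 were called higher.

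Antimicrobial proteins of skin rose in 8 of 12 cases, with a median log2 fold change of 3.38. Defb4 went from 8.67, 8.47 and 0.856 to 86.7, 129 and 45.8 and Defb14 from 5.78, 8.47 and 2.57 to 78.2, 155 and 42.9, both β-defensins induced in keratinocytes. Chil1, a chitinase-like protein, went from 113, 15.4 and 13.7 to 1596, 769 and 1566. Defb3 had 0, 10.01 and 11.98 and then 6.60, 26.8 and 0 and was not called. Without 24-hour digit a or b, 5 of the 12 were called higher.

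Genes of keratinocyte migration were mostly higher. Of 18 tested, 15 were higher, none was lower and all 18 had a rising fitted value, with a median log2 fold change of 2.03. Leaving out any 1 digit left 14 or 15 called. Plaur, the urokinase receptor at the leading edge, went from 43.3, 25.4 and 42.8 to 837, 452 and 1201, a log2 fold change of 4.49 ± 0.41 (edgeR, adjusted p = 0.000503). The integrin chains of the hemidesmosome changed less: Itga6 went from 3778, 2634 and 2357 to 9176, 7227 and 9536 and Itgb4 from 1631, 1272 and 1254 to 3024, 3245 and 3533. Itga3, the laminin-332 receptor chain, went from 429, 253 and 305 to 1027, 956 and 1224.

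Of 10 EGF receptor family ligands and receptors, 4 ligands were higher, 1 ligand was lower and 5 genes were not called. Areg went from 24.6, 33.9 and 34.2 to 427, 428 and 581, a log2 fold change of 3.93 ± 0.25 (edgeR, adjusted p = 0.000109). Epgn went from 178, 146 and 132 to 1554, 1723 and 3795, Hbegf from 458, 119 and 111 to 1735, 1113 and 1579, and Tgfa from 104, 80.1 and 104 to 570, 404 and 474. Ereg, another ligand of the same receptor family, went the other way, from 1133, 1814 and 1432 to 482, 879 and 651, a log2 fold change of -1.12 ± 0.26. Its call was lost without 0-hour digit b or c or 24-hour digit a or c (adjusted p 0.0664 to 0.0909 in edgeR), while 2 genes of the list were lower without 0-hour digit a or 24-hour digit b. Btc and Egf, further ligands, were not called, with log2 fold changes of -1.51 and -0.80.

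**Figure D3:**
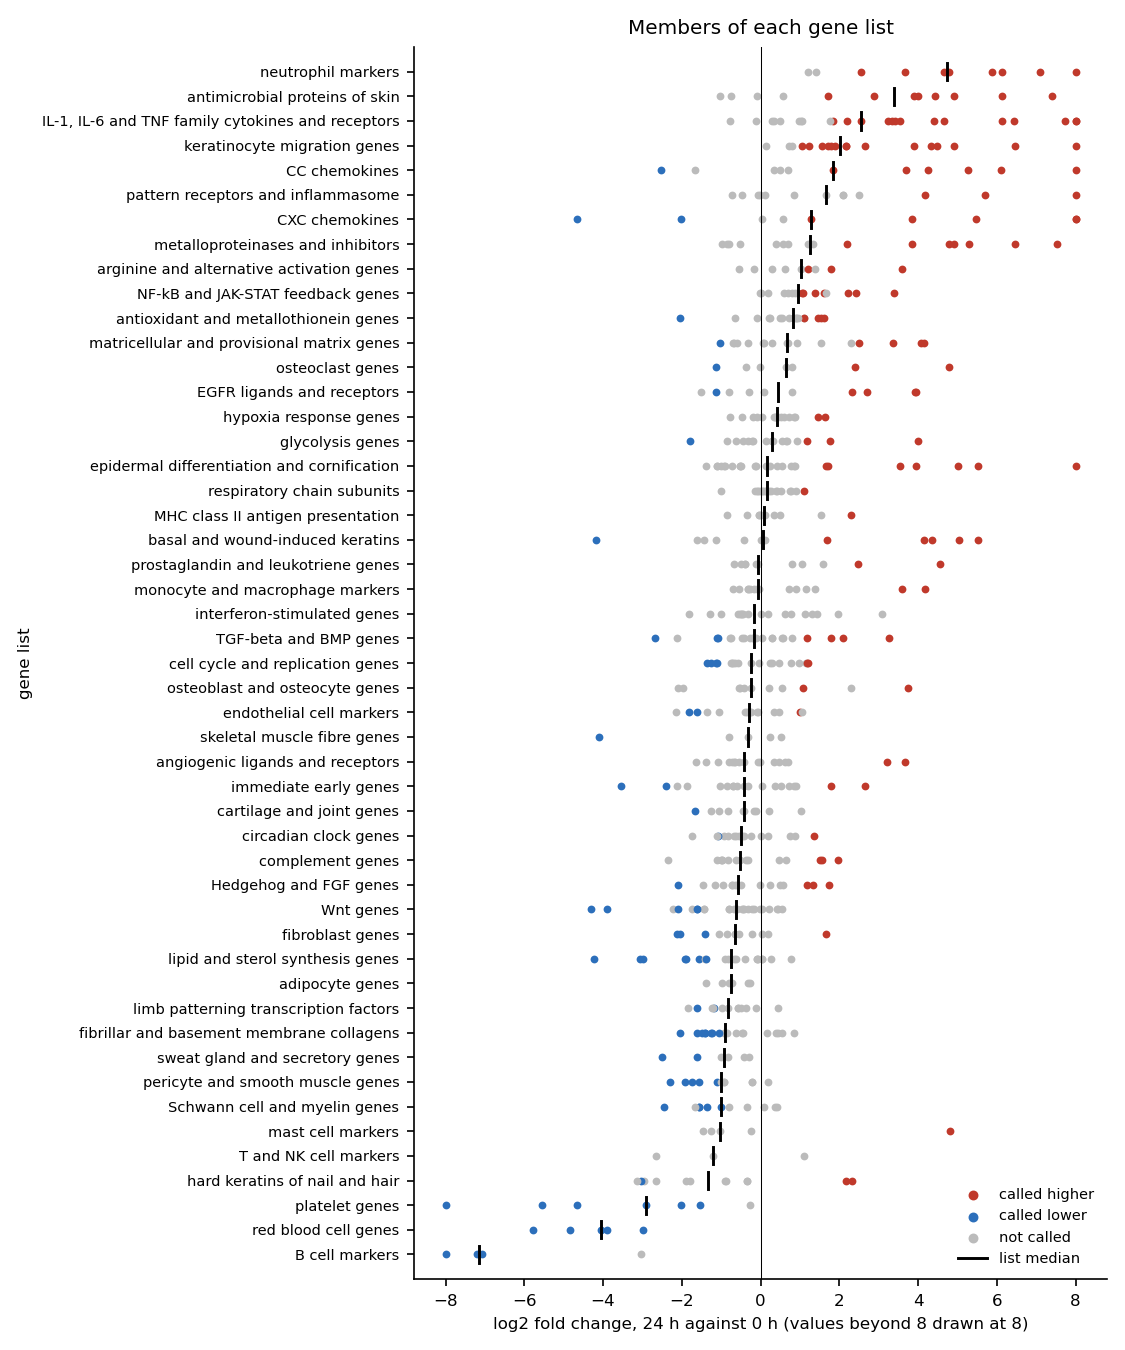
Each row is a gene list and each point a tested member placed at its log2 fold change at 24 hours against 0 hours, red where called higher, blue where called lower and grey where not called; the black tick is the list's median, and values beyond 8 are drawn at 8. Neutrophil, antimicrobial, cytokine and migration lists lie to the right, and red cell, platelet and B cell lists to the left.

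Matrix turnover moved in opposite directions, with proteases higher and collagens lower. Of 16 metalloproteinases and inhibitors tested, 7 were higher and none was lower. Mmp13, a collagenase, went from 75.1, 7.70 and 31.7 to 1098, 597 and 1546, a log2 fold change of 4.92 ± 0.68 (edgeR, adjusted p = 0.00317). Mmp10 had 3 counts in all at 0 hours and then 102, 105 and 75.9, a ratio of 102 with a counting interval of 34.4 to 496. Mmp1b, the rodent relative of interstitial collagenase, was at 0 in every 0-hour digit and at 46.2, 62.0 and 110 later, at least 16.8-fold higher. Mmp9, a gelatinase of neutrophils, osteoclasts and keratinocytes, went from 127, 36.2 and 31.7 to 1820, 981 and 2375. Timp1, the inhibitor of these enzymes, went from 28.9, 6.16 and 5.99 to 387, 385 and 677. Mmp2, a gelatinase of fibroblasts, had 1182, 931 and 875 and then 431, 528 and 706, a log2 fold change of -0.85 ± 0.22 (edgeR, adjusted p = 0.0321), below the 2-fold limit. The exons that Mmp1b overlaps are those of Mmp12, another metalloproteinase.

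Collagen genes fell in 8 of 18 cases and rose in none, with a median log2 fold change of -0.90. Col5a1 went from 1412, 1138 and 1318 to 255, 424 and 588 and Col6a1 from 1533, 1271 and 1451 to 314, 591 and 696, with log2 fold changes of -1.61 ± 0.28 and -1.41 ± 0.28 (edgeR, adjusted p = 0.00816 and 0.0125). Col1a1, the main chain of dermis and bone, had 7531, 4192 and 5226 and then 1028, 2292 and 3095. Col3a1 had 14443, 9519 and 12539 and then 3402, 4072 and 7819. The calls of Col1a1, Col1a2 and Col3a1 were lost without 0-hour digit b or c or 24-hour digit a or b, and that of Col1a1 also without 0-hour digit a (adjusted p 0.0525 to 0.142 over the 3 genes in edgeR). The count of 8 was 3 without 0-hour digit c, 5 without 0-hour digit b and 4 without 24-hour digit a or b.

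Matricellular and provisional matrix genes gave 4 rises and 1 fall among 17. Tnc, tenascin-C of wound edges, went from 233, 163 and 131 to 2254, 2762 and 3838, a log2 fold change of 4.08 ± 0.30 (edgeR, adjusted p = 0.000215). Has2, which makes hyaluronan, went from 70.8, 61.6 and 51.3 to 491, 133 and 408, and Tnfaip6, which cross-links hyaluronan, from 27.5, 10.01 and 4.28 to 118, 111 and 178. Fn1, fibronectin, had 4782, 2204 and 2122 and then 1734, 1958 and 3570, with overlapping groups. Without 0-hour digit a, 8 of the 17 were higher.

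Fibroblast markers gave 3 falls and 1 rise among 12. Dpt went from 971, 878 and 838 to 295, 412 and 311, Clec3b from 419, 322 and 269 to 74.5, 96.2 and 60.1 and Col14a1 from 217, 122 and 95.8 to 34.9, 26.8 and 42.9. Pdgfra, a pan-fibroblast receptor, had 585, 452 and 469 and then 403, 595 and 714, a log2 fold change of 0.18 ± 0.23. Ly6a, which encodes Sca-1, went from 952, 459 and 361 to 1729, 1949 and 1885 and lost its call without 0-hour digit b (adjusted p = 0.0519 in edgeR).

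Genes of red cells, platelets and B cells were mostly lower. All 5 red cell genes tested were lower, and their summed level was 8422 to 10487 at 0 hours and 230 to 1265 at 24 hours. Hbb-bs, a β-globin, went from 3213, 3570 and 3786 to 93.3, 89.7 and 462, a log2 fold change of -4.05 ± 0.63 (edgeR, adjusted p = 0.0051). Haemoglobin genes took 0.150, 0.108 and 0.102% of all counts at 0 hours and 0.00343, 0.00247 and 0.0150% at 24 hours. Hba-a1 and Hba-a2 are near-identical copies, as are Hbb-bs and Hbb-bt, so their separate values are uncertain.

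Platelet genes were lower in 6 of 7 cases, with summed levels of 1001 to 4795 and then 398 to 533. The 0-hour digit a, the only 0-hour digit of the earlier date period, was far above the other 0-hour digits in these genes. Itga2b, the platelet integrin chain, had 1234, 250 and 163 and then 70.7, 77.7 and 68.7 and lost its call without any 1 of the 24-hour digits (adjusted p 0.0700 to 0.0984 in edgeR). Gp6, the platelet collagen receptor, went from 133, 20.8 and 11.98 to 0 in every digit, at least 12.9-fold lower, with the same losses (adjusted p 0.0553 to 0.0741 in edgeR). None of the 7 was called without 24-hour digit a or c, 1 was without 24-hour digit b, and 3 were without 0-hour digit a. Of 4 B cell markers tested, 3 were lower. Cd79a, a part of the B cell receptor, went from 27.5, 28.5 and 53.9 to 0 in all 24-hour digits, at least 8.53-fold lower. The B cell list summed to 73.7 to 169 at 0 hours and to 0 to 12.02 at 24 hours, and without 0-hour digit c 1 was called. These cells travel in blood and marrow, and their part in other falls was not tested.

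Vessel, muscle and nerve genes shifted less. Of 16 endothelial markers, 1 was higher and 2 lower, beside 5.57% higher and 5.14% lower over all tested genes. Pecam1 had 766, 368 and 449 and then 370, 448 and 495, and Kdr had 299, 178 and 188 and then 188, 169 and 273, and neither was called. Lyve1, a marker of lymphatic vessels and some macrophages, went from 189, 244 and 247 to 48.1, 89.7 and 87.3, a log2 fold change of -1.60 ± 0.29 (edgeR, adjusted p = 0.00881). Vwf, which endothelium and platelets share, had 770, 283 and 281 and then 97.1, 107 and 172 and lost its call without 24-hour digit a or b (adjusted p 0.0721 to 0.0974 in edgeR).

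Smooth muscle and pericyte genes were lower in 5 of 11 cases. Myh11, the smooth muscle myosin, went from 3260, 1695 and 3763 to 804, 734 and 783, a log2 fold change of -1.91 ± 0.29 (edgeR, adjusted p = 0.00448). Acta2, which myofibroblasts also make, had 2268, 536 and 1209 and then 823, 593 and 697 and was not called. The count of 5 was 1 without 24-hour digit a, 2 without 0-hour digit c or 24-hour digit c, and 3 without 0-hour digit a or 24-hour digit b. Schwann cell and myelin genes were lower in 5 of 11 cases, but none of the list was called without 0-hour digit c or 24-hour digit a, and 2 or 3 were without any other digit. S100b went from 273, 141 and 337 to 68.8, 93.4 and 91.6 and lost its call without either of those digits (adjusted p 0.0693 and 0.0759 in edgeR). Mbp, a myelin protein, had 238, 246 and 261 and then 370, 351 and 275.

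Bone and nail genes were mixed. Pdpn, a glycoprotein of early osteocytes that injured keratinocytes also make, went from 44.8, 43.1 and 29.1 to 573, 346 and 656, a log2 fold change of 3.75 ± 0.31 (edgeR, adjusted p = 0.000362). Bglap, osteocalcin, had 114, 21.6 and 23.96 and then 0.943, 7.40 and 30.1, with overlapping groups. Acp5 and Ctsk, markers of mature osteoclasts, were not called, at 139, 71.6 and 52.2 and then 131, 126 and 153 for Acp5, and at 262, 132 and 126 and then 133, 240 and 524 for Ctsk. Car2, which osteoclasts and epithelia make, went from 457, 411 and 458 to 2425, 3078 and 1489. Of 12 hard keratins of nail and hair, 2 were higher and 1 lower. The rises numbered 0 without 24-hour digit a or c, 1 without 24-hour digit b and 4 without 0-hour digit a, and the falls 2 without 0-hour digit b. Krt35, a keratin of the hair cortex and nail matrix, went from 501, 290 and 373 to 50.9, 37.9 and 54.4, a log2 fold change of -3.02 ± 0.28 (edgeR, adjusted p = 0.00054). Krt36 went the other way, from 1831, 454 and 2620 to 7460, 5751 and 11264, and lost its call without 24-hour digit a or c (adjusted p 0.0823 and 0.0769 in edgeR). The hard keratins summed to 50214, 2819 and 11204 at 0 hours, so the nail and hair share differed widely between digits of 1 group.

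Signalling genes of limb growth gave calls in both directions, to be read beside 5.57% higher and 5.14% lower over all tested genes. In the TGF-β and BMP list, 4 of 23 were higher and 3 lower, and 1 was lower without 0-hour digit c or 24-hour digit a or c. Inhba, the activin A subunit, went from 30.3, 76.2 and 92.4 to 521, 567 and 872, a log2 fold change of 3.27 ± 0.39 (edgeR, adjusted p = 0.00178), and Fst, which binds and blocks activin, from 399, 193 and 264 to 857, 925 and 1175. Gdf10 went from 296, 204 and 198 to 49.0, 33.3 and 25.8. Tgfb1 had 173, 81.6 and 77.9 and then 139, 142 and 291 and was not called. Tgfb2 and Tgfb3 were lower, each with a log2 fold change near -1.1 that lost its call in 4 of 6 fits, those without 0-hour digit c, 24-hour digit a or 24-hour digit c, and without 0-hour digit a for Tgfb2 or b for Tgfb3. The lowest and highest log2 fold change in those fits were -1.09 and -0.95 for Tgfb2 and -1.19 and -0.93 for Tgfb3.

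Wnt genes were lower in 5 of 27 cases and higher in none, with a median log2 fold change of -0.61. Rspo2, a booster of Wnt signals, had 28.9, 20.8 and 20.5 and then 0, 1.85 and 1.43, a ratio of 21.3 with a counting interval of 6.99 to 106, and lost its call without 0-hour digit b or c (adjusted p 0.0519 and 0.0543 in edgeR). The ligands Wnt5a and Wnt4 were not called, at 540, 994 and 864 and then 773, 784 and 355 for Wnt5a, and at 561, 859 and 720 and then 1152, 972 and 989 for Wnt4. The count of 5 was 1 without 0-hour digit b or c, 2 without 24-hour digit a and 3 without 24-hour digit c. Among Hedgehog and FGF genes, Hhip, a Hedgehog-binding inhibitor, went from 214, 201 and 143 to 48.1, 45.3 and 35.8, a log2 fold change of -2.10 ± 0.27 (edgeR, adjusted p = 0.0025). Etv4 and Spry2, targets of receptor tyrosine kinase signals, were higher, with 39.0, 47.8 and 34.2 and then 140, 151 and 113 for Etv4, and 167.6, 213 and 199 and then 475, 403 and 447 for Spry2. Shh, Ihh and Dhh were too low to test. Of 13 limb patterning transcription factors, none was higher and 2 were lower (1 without 0-hour digit c or 24-hour digit a or b), of which Tfap2b went from 1035, 1359 and 1237 to 411, 479 and 292.

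Of 19 immediate early genes, 2 were higher and 2 lower, beside 5.57% higher and 5.14% lower over all tested genes. The rises numbered 5 without 0-hour digit a and 1 without 0-hour digit c, and 1 gene was lower without any 1 of the 24-hour digits. Jun went from 4015, 2492 and 2043 to 511, 615 and 487, a log2 fold change of -2.41 ± 0.27 (edgeR, adjusted p = 0.00148), whereas Fosl1, which encodes the Fra-1 partner in AP-1, went from 80.9, 17.7 and 34.2 to 197, 208 and 409. The call of Fosl1 was lost without 0-hour digit c (adjusted p = 0.0592 in edgeR). Fosb had 6773, 1235 and 690 and then 198, 129 and 417 and lost its call without any 1 of the 24-hour digits (adjusted p 0.0524 to 0.106 in edgeR). Fos had 12286, 2766 and 1183 and then 1207, 914 and 2342, and its groups overlapped. Fos, Fosb and Jun were highest in 0-hour digit a, the only 0-hour digit of the earlier date period.

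Metabolic genes gave few calls, to be read beside 5.57% higher and 5.14% lower over all tested genes. Among 18 glycolysis genes, 3 were higher and 1 lower. Slc2a1, the glucose transporter GLUT1, went from 688, 443 and 490 to 2312, 1489 and 1703, a log2 fold change of 1.77 ± 0.24 (edgeR, adjusted p = 0.00296). Slc16a3, the lactate exporter, went from 8.67, 14.6 and 20.5 to 369, 74.0 and 286, and Hk2 from 709, 637 and 710 to 1637, 1550 and 1507. Pfkm, the muscle form of phosphofructokinase, was lower, from 345, 347 and 418 to 107, 135 and 75.9. Hypoxia genes gave 2 rises among 16, and Vegfa had 1024, 595 and 832 and then 1210, 586 and 1303, with overlapping groups. The respiratory chain gave 1 rise among 19, near the share over all tested genes. It was Ndufa4, from 803, 806 and 720 to 1606, 1778 and 1620.

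Lipid and sterol synthesis genes were lower in 7 of 20 cases and higher in none, with a median log2 fold change of -0.75. Scd1, a fatty acid desaturase, went from 2521, 2371 and 3977 to 921, 757 and 650, a log2 fold change of -1.93 ± 0.25 (edgeR, adjusted p = 0.00256). Awat1, a wax synthase of sebaceous glands, went from 46.2, 42.4 and 48.8 to 5.66, 5.55 and 5.73. Elovl3 went from 91.0, 87.8 and 145 to 0, 15.7 and 0 and lost its call without 0-hour digit b or c or 24-hour digit a or c (adjusted p 0.0501 to 0.0839 in edgeR). Fasn and Acaca, which every lipid-making cell uses, were not called, at 1201, 1053 and 1052 and then 1011, 892 and 1178 for Fasn. Without 24-hour digit a, 4 of the 20 were called lower.

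Of 19 cell cycle genes, 2 were higher, 4 were lower and 13 were not called, beside 5.57% higher and 5.14% lower over all tested genes. Mki67, a marker of cycling cells, went from 1874, 2402 and 2110 to 1050, 618 and 840, a log2 fold change of -1.35 ± 0.22 (edgeR, adjusted p = 0.00654), and Plk1, a mitotic kinase, from 157, 197 and 171 to 69.8, 67.5 and 81.6. Mcm5, a part of the replicative helicase, went from 247, 261 and 222 to 592, 410 and 700, a log2 fold change of 1.22 ± 0.22 (edgeR, adjusted p = 0.00859). Rrm2, which supplies deoxynucleotides, went from 215, 238 and 233 to 490, 419 and 650 and fell just below the 2-fold limit without 24-hour digit c, at a log2 fold change of 0.99. Only 2 genes of the list were lower without 0-hour digit b or c or 24-hour digit a or c.

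Stress and vessel signals completed the rises. Hmox1, which breaks down haem, went from 147, 159 and 213 to 482, 534 and 415 and Slc7a11, the cystine importer, from 519, 374 and 341 to 1063, 842 and 1676. The metallothioneins differed, with Mt4, a form of stratified epithelium, at 2640, 3236 and 3220 and then 589, 1169 and 460, and Mt1 at 1185, 383 and 322 and then 916, 1325 and 1111. Mt4 was called lower with a log2 fold change of -2.03 ± 0.34 (edgeR, adjusted p = 0.00639) and Mt1 was not called. Angptl4 went from 15.9, 3.85 and 11.98 to 83.0, 101 and 208 and Apln from 7.22, 4.62 and 11.98 to 55.6, 69.4 and 98.8, the 2 calls among 17 angiogenic genes. Odc1, which starts polyamine synthesis, went from 1092, 1226 and 1032 to 4086, 3196 and 4207, while Arg1 had 342, 965 and 1031 and then 1224, 2213 and 1327 and was not called.

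Calls in the other lists are given as counts, beside 5.57% higher and 5.14% lower over all tested genes. Of 11 osteoblast and osteocyte genes 2 were higher (1 without 0-hour digit b or c or 24-hour digit a or c), and of 7 osteoclast genes 2 were higher and 1 lower, the fall being called only with all digits or without 0-hour digit b. Of 10 cartilage and joint genes 1 was lower (0 without 0-hour digit a or c or 24-hour digit a). Of 5 skeletal muscle genes 1 was lower (0 without 0-hour digit c or 24-hour digit a or c), and none of 6 adipocyte or 2 melanocyte genes was called. Of 15 complement genes 3 were higher, but 0 were without 0-hour digit b or c or 24-hour digit a or c and 1 was without 24-hour digit b, and 3 were lower without 24-hour digit c. MHC class II presentation gave 1 rise among 11, called otherwise only without 24-hour digit b. Arginine and alternative activation genes gave 3 rises among 9. Circadian clock genes gave 1 rise and 1 fall among 16, the rises numbering 0 without any 1 of the 24-hour digits and 2 without 0-hour digit a, and the falls 4 without 24-hour digit b, 2 without 0-hour digit c and 0 without 0-hour digit b or 24-hour digit c. Of 17 antioxidant and metallothionein genes 4 were higher and 1 lower, the rises numbering 7 without 0-hour digit a and 2 without 0-hour digit b or c. Of 6 sweat gland genes 2 were lower, against 0 without 0-hour digit c or 24-hour digit a and 1 without 24-hour digit b or c. Of 5 mast cell markers 1, Hdc, was higher.

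Means at 24 hours were set among the other non-regenerative digits sampled up to 7 days, on the normalized TPM scale, as a description. Mmp3 stood at 5.37 at the time of amputation, 32.8 after 3 hours, 363 after 6, 945 after 12 and 948 after 24, then 170 after 3 days and 109 after 7. Il24 was already at 63.4 at 6 hours, against 41.8 at 24 hours and 3.38 at 3 days. S100a8 was at 42.5 at 6 hours and 391 at 24 hours and still at 229 at 3 days. All 3 were lower at 3 days than at 24 hours. Hbb-bs was at 1313 at 0 hours and 255 at 3 hours, with every digit lower at 3 hours than at 0 hours. Tubb1 was at 126, 21.8 and 14.9 at 0 hours and at 7.79, 0 and 29.9 at 3 hours, so its groups overlapped and digit a carried the 0-hour mean. Krt15 behaved otherwise, at 253, 278 and 297 at 0, 3 and 6 hours, 62.1 at 12 hours, 11.4 at 24 hours and 131 at 3 days, with 24 hours the lowest mean of these times.

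**Figure D4:**
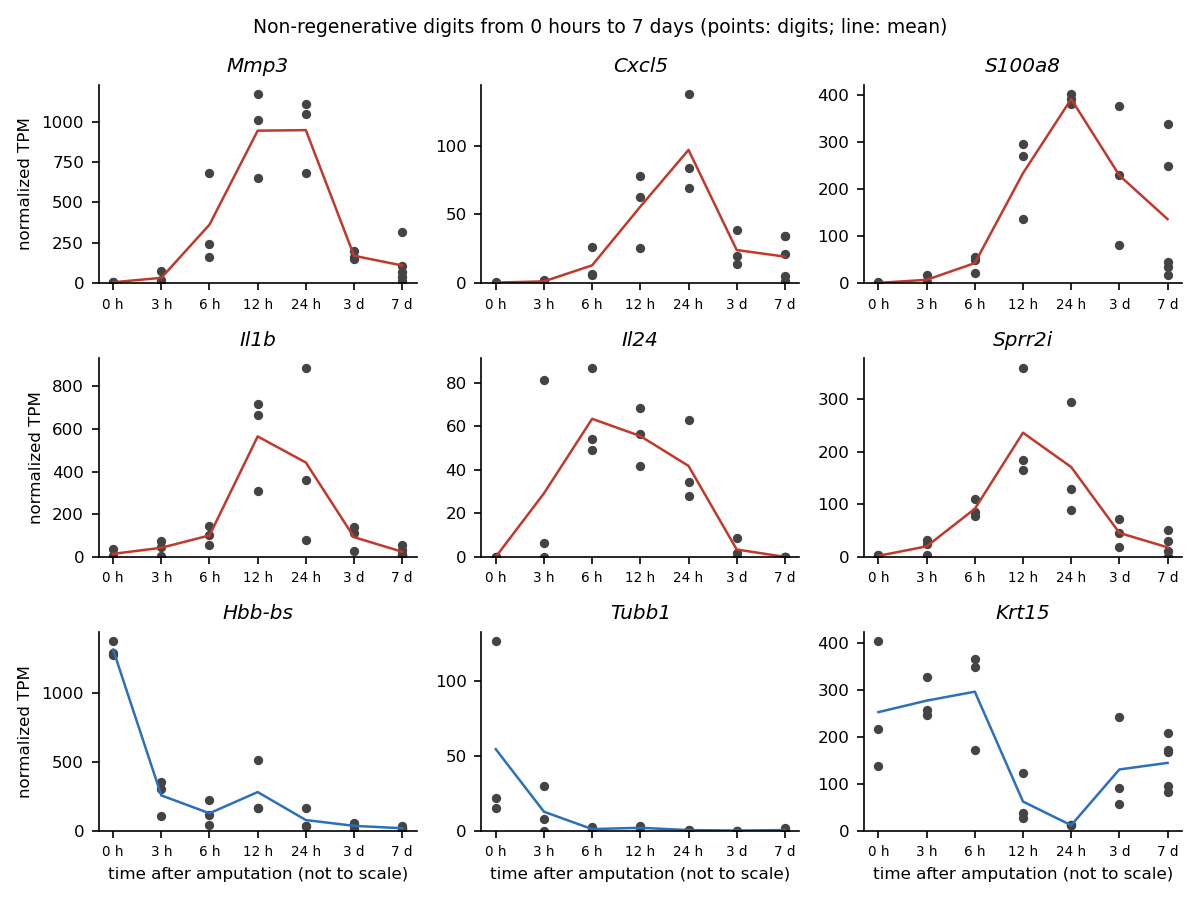
Normalized TPM of 9 genes in each non-regenerative digit from 0 hours to 7 days, with points for digits, a line through the means, and time points evenly spaced. The 6 rising genes are highest at 6, 12 or 24 hours, while Hbb-bs is lower in every digit at 3 hours, Tubb1 overlaps between 0 and 3 hours, and Krt15 is lowest at 24 hours.

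Intermediate digits gave far fewer calls over the same interval. With 3 digits at each time, 2 of 13172 tested genes were higher (0.0152%), Mmp3 and Acod1, and 0 were lower (0%). In edgeR 2034 genes had an unadjusted p below 0.05. Without intermediate 24-hour digit a, 36 genes passed an adjusted p of 0.05. The difference of the changes itself was tested over all 12 digits as the interaction of time and amputation group. None of 13996 genes was called (0%) in edgeR, where 1132 had an unadjusted p below 0.05 and the smallest adjusted p was 0.498, and DESeq2 called 33. Without intermediate 24-hour digit a, 178 were called in edgeR. A smaller number of calls in the intermediate digits does not show that a gene changed differently there.

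Of the 1366 genes called in the non-regenerative digits and tested in both, 1284 had the same fitted direction in the intermediate digits and 1319 had a smaller fitted change there. The genes that rose had a median log2 fold change of 1.57 in the non-regenerative digits and 0.86 in the intermediate ones, and those that fell -1.56 and -0.66. The genes were chosen for their change in the first group, which favours larger values there. The 3 smallest interaction p-values belonged to Atp12a, a proton pump, H2-Q7, a non-classical MHC class I gene, and Skint4, of a family of thymic and skin epithelium genes, all with an adjusted p of 0.498 in edgeR. The calls of Atp12a and H2-Q7 in the non-regenerative digits were lost without 0-hour digit c or 24-hour digit a (adjusted p 0.0611 to 0.0678 and 0.0525 to 0.0557 in edgeR). Skint4, scaled over these 12 digits, had 53.8, 52.5 and 78.5 and then 23.2, 118 and 55.1 in the intermediate digits, and 166, 82.9 and 50.9 and then 4.74, 1.87 and 4.29 in the non-regenerative digits.

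**Figure D5:**
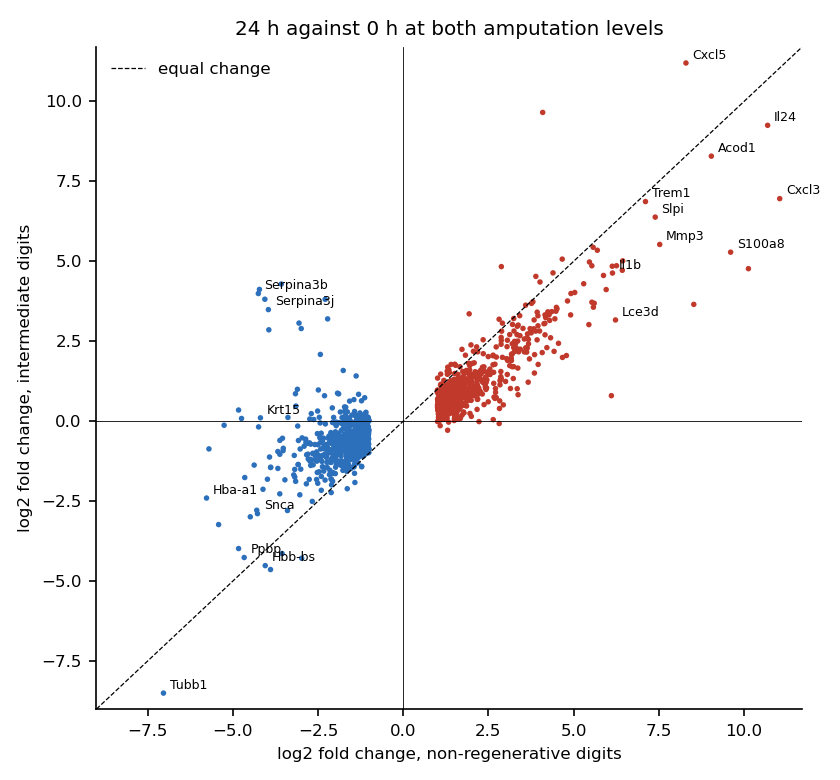
Log2 fold change at 24 hours against 0 hours in the non-regenerative digits (horizontal) and in the intermediate digits (vertical) for the 1366 genes called in the former and tested in both. Most points lie between the horizontal axis line and the dashed line of equal change, and Serpina3b and Serpina3j lie on the opposite side of 0.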

How the data were processed

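RNA of mouse digit wound beds was made into poly-A selected, ligation-mediated libraries and read single-end. The deposited expected counts were made by the authors with Bowtie and RSEM 1.2.3 on an Ensembl annotation of mm10 (submitters' notes also name CASAVA); the deposited normalized TPM signal is the authors' TPM scaled by median-by-ratio factors. Expected counts spread multi-mapping reads by estimate, so copies of a gene family can trade reads. Macrophage tables were not used here.

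Expected counts of 21954 genes were rounded, and 26 symbols turned into dates by a spreadsheet were restored. Genes were filtered with filterByExpr, scaled by TMM and tested with edgeR 4.0.16 (glmQLFit, glmQLFTest; R 4.3.3) with no covariate; p-values were adjusted by Benjamini-Hochberg over all genes. EBSeq, which the study used, was not available. A call needed an adjusted p under 0.05 and group means (normalized count plus 1) more than 2-fold apart. Standard errors are the log2 fold change divided by the square root of F. Where a group was at 0, the bound uses 3 counts in its smallest library; with 1 to 3 counts, an exact binomial 95% interval is given. The script was tested on simulated data. Gene lists and members were chosen with earlier results of these data known.

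Named genes were the 12 largest rises and falls with a mean of at least 100 and no overlap, the first 3 tested and up to 4 most changed called members of each list, the 5 most abundant called genes in each direction, and the 3 smallest interaction p-values. Alternatives were DESeq2 1.42.0, limma 3.58.1 on log2(normalized TPM + 1), other scalings and filters, date period as a term, and each digit left out. Labels date digits to an earlier and a later period. The earlier holds 0-hour digit a and 24-hour digits a and c, and the later 0-hour digits b and c and 24-hour digit b. Promoters are from RefSeq (GRCm38.p6).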

Additional observations from a re-analysis of the deposited data

How the results depend on the processing

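No paired analysis was possible because the study's methods give each time point its own mice, and the labels give the digits no replicate numbers. The 0-hour and 24-hour digits are therefore unpaired by design. Genes called higher and lower numbered 865 and 963 with DESeq2, 744 and 696 with RLE factors, 619 and 889 with upper quartile factors, 797 and 730 with no filter, 708 and 679 with a stricter one, 755 and 817 with date period as a term, and 1286 and 966 with no fold threshold. They numbered 147 and 39 with all non-regenerative digits in 1 fit, 569 and 466 with limma on log2(normalized TPM + 1), 561 and 451 with a pseudocount of 0.1, and 451 and 327 with all genes above 0, and the cause was not tested. With 1 digit left out, 510 to 950 were higher and 306 to 757 lower, the extremes being 950 and 757 without 0-hour digit a, 510 and 307 without 0-hour digit c, and 524 and 306 without 24-hour digit a. Lower calls also numbered 420 without 0-hour digit b. Genes with a different change in the intermediate digits numbered 0 in edgeR and 33 in DESeq2, and 0 to 178 with 1 digit left out. The log2 fold change of Krt33b, a hair keratin not called, was -1.90, and it ranged from -2.45 to 1.32 with 1 digit left out, turning positive without 0-hour digit a. Of 174 named calls, 172 were kept in DESeq2 and 109 without 24-hour digit a, and of the 172 tested with all non-regenerative digits in 1 fit 54 were kept. Libraries of 4747702 to 10608244 counts limit what can be seen in genes at a few counts.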

Other observations

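Families of genes with a shared symbol and at least 8 tested members were looked at after the values were seen. All 11 tested genes with an Sprr symbol were called higher, with a median log2 fold change of 5.29. They belong to the family of small proline-rich envelope proteins, partly described above, and include a pseudogene symbol. Their similar sequences may share reads, so the 11 are not separate measurements. Of 8 Skint genes, which encode butyrophilin-like proteins of thymus and skin epithelium, 5 were called lower, Skint3, Skint4, Skint6, Skint9 and Skint10, with a median over the 8 of -2.37. Skint4 went from 167.6, 80.9 and 49.6 normalized counts to 4.71, 1.85 and 4.29. Skint4 and Skint10 kept their call with each digit left out. The calls of Skint3, Skint6 and Skint9 were lost in 6, 5 and 4 of 6 such fits (edgeR, adjusted p 0.0519 to 0.163), among them those without 0-hour digit b or c or 24-hour digit a or b. Semaphorins went both ways, with 3 of 19 higher and 5 lower.

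Some genes had opposite fitted directions in the 2 amputation groups, without a call for the difference. Elovl3, scaled over the 12 digits, had 90.3, 89.999 and 149 and then 0, 15.9 and 0 in the non-regenerative digits, but 0.633, 0 and 31.1 and then 0, 352 and 103 in the intermediate digits. Serpina3j had 2.53, 6.17 and 96.3 and then 6.82, 880 and 177 in the intermediate digits. Krt15 had 2019, 1246 and 2504 and then 267, 4820 and 1116 there. Its fitted log2 fold change in the intermediate digits was only 0.10, and 24-hour digits a and c lay below every 0-hour digit. Intermediate 24-hour digit b was the highest in all 3 genes and digit a the lowest of that group at 24 hours, and the adjusted p of the difference was 0.498 for each in edgeR.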
